A study of Homo sapiens with 3 samples.

Results

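The endothelin system was followed across human chambered cardiac organoids (CCOs) through 5 genes, chosen by name and not by their values: the ligand genes EDN1 and EDN3, the receptor genes EDNRA and EDNRB, and ECE1, which encodes endothelin-converting enzyme 1. They are 5 of the 32738 genes in the deposited table of unique molecular identifier (UMI) counts, and all 5 had a UMI in at least 10 barcodes. The CCOs were grown from H7, an established line of human embryonic stem cells that the labels describe without a genetic change or a treatment, and they were dissociated for droplet 3′ single-cell RNA libraries at D8, D14 and D21. Each day is represented by 1 library, so no replicate error and no test between days could be given. From aggregation until D14 the CCOs grew in a cardiosphere medium whose added factors include EDN1 protein, and afterwards in a basal cardiac medium in a spinner flask, so that day, medium and library cannot be told apart. In a separate experiment of the study, progenitors were sorted with antibodies to SIRPA and EDNRA, with EDNRA taken as a surface proxy for ISL1+ cells, and no such sort is stated for the CCOs sequenced here.

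Endothelins are made as preproproteins. Furin-type proteases cut them to an inactive big endothelin, which ECE1 then cuts to the active peptide. The peptide acts on G protein-coupled receptors: EDNRA prefers EDN1 and EDN2 over EDN3, EDNRB binds all 3 about equally, and both can signal through Gq, phospholipase C and calcium release. In the heart the endothelium is the textbook source of EDN1, and cardiomyocytes (CMs) and smooth muscle cells carry EDNRA. In the embryo EDN1 and EDNRA pattern the neural crest of the pharyngeal arches, with HAND2 among the genes that depend on them, while EDN3 and EDNRB are needed by the precursors of enteric neurons and melanocytes.

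After the limits on genes and mitochondrial share, the 3 libraries had 2657, 3585 and 1946 cells in order of day, with 46767738, 50247286 and 30898727 UMIs. The median was 15316, 12282 and 14105.5 UMIs per cell. The 3 pairs of libraries shared 9 to 14 barcodes among the kept cells. The cells fell into 18 clusters, 15 of which drew 90% or more of their cells from 1 library, and 10 of which could be named from marker lists. CM-like cells met 7, 8 and 8 of their 8 markers at D8, D14 and D21, and endothelial-like cells met all 7 of those in the table. CM-like cells came mainly from cluster 5 at D8, cluster 0 at D14 and cluster 6 at D21, and dividing cells from clusters 9, 7 and 15, so each of these names spans different clusters by day. Clusters without a name are given by number and leading genes, and the names were rebuilt here from expression. As a gauge of RNA from other cells, TNNT2, which CMs make, was at 497 CPM (UMIs of the gene scaled as counts-per-million of all UMIs of the cells pooled) in fibroblast-like cells of D21 and at 310 CPM in hepatic endoderm-like cells of that day, against 8907 CPM in CM-like cells. Whether free RNA, doublets or low expression gave these counts was not tested.

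Levels below are summed UMIs of a group of cells as CPM with an exact Poisson 95% interval, and ratios are log2 ratios of these levels with an exact 95% interval. The intervals cover counting error only, and they are too narrow where a few cells hold most UMIs. A 3′ library gives 1 tag per molecule and is not scaled by length, so levels were compared within a gene and not between genes. Shares of cells with a UMI were taken after each cell was thinned to 4000 UMIs, with the unthinned share beside them.

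**Figure D1:**
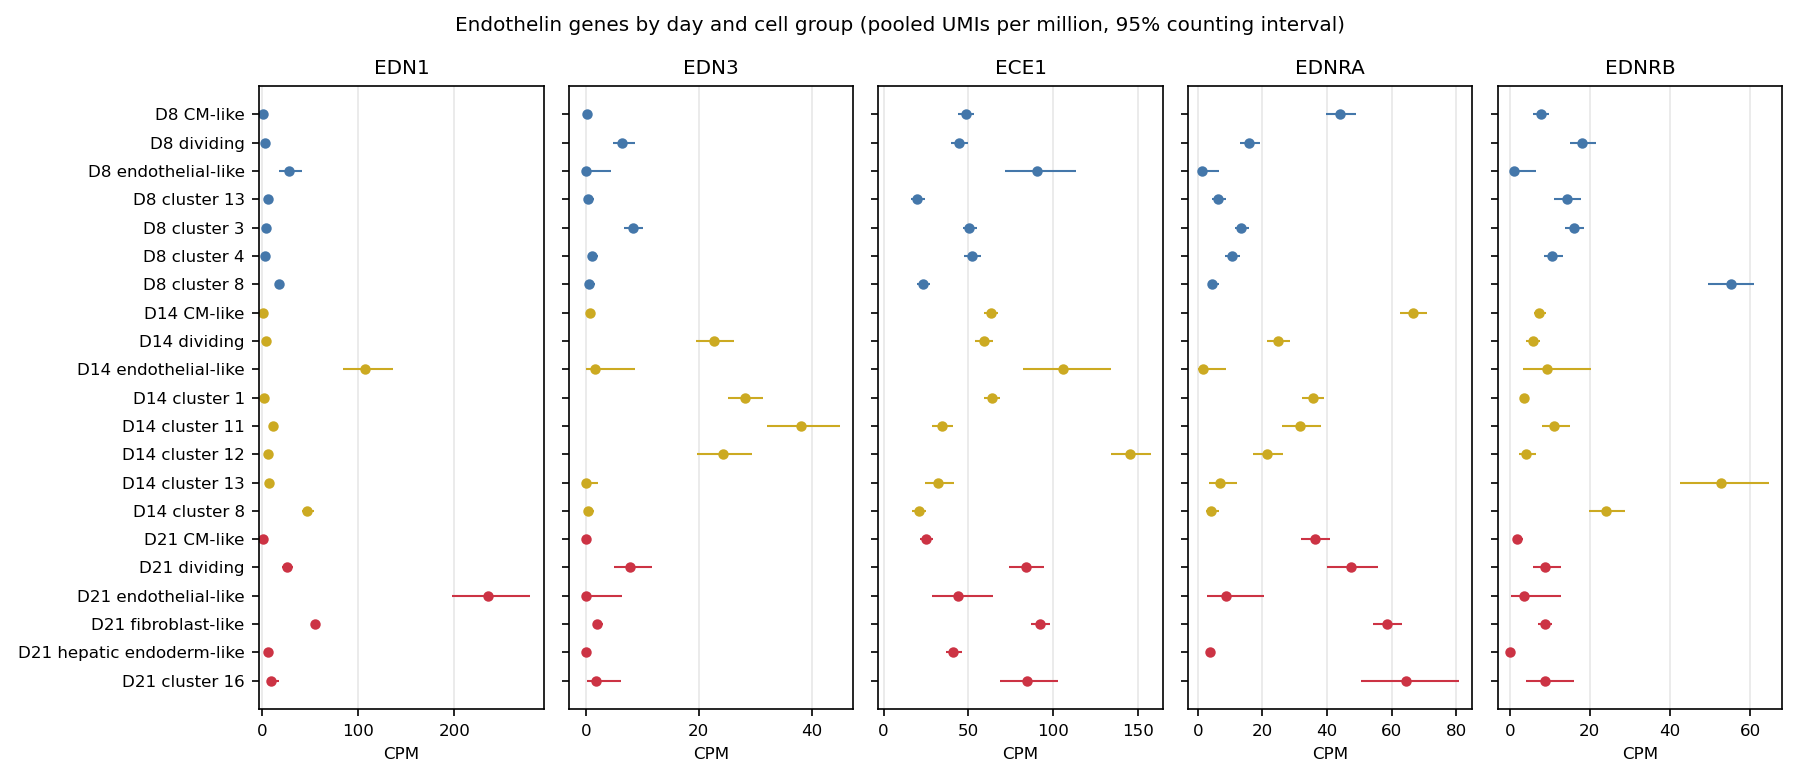
Level of each of the 5 genes in CPM (horizontal axes) in every cell group of at least 30 cells on each day (vertical axis). Points are the level and bars the exact Poisson 95% interval. D8 is blue, D14 yellow and D21 red. EDN1 was highest in endothelial-like cells, at 27.5, 107 and 235 CPM by day, while EDNRA was at 44.1, 66.6 and 36.3 CPM in CM-like cells and at 1.19, 1.56 and 8.78 CPM in endothelial-like cells.

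EDN1, the ligand with the widest known role in the heart, was high in endothelial-like cells and nearly undetected in CM-like cells on all 3 days. Over all kept cells it had 265 UMIs at D8, or 5.67 CPM (5.00 to 6.39), 438 UMIs at D14, or 8.72 CPM (7.92 to 9.57), and 893 UMIs at D21, or 28.9 CPM (27.0 to 30.9). D21 thus lay above both earlier days by counting interval. The log2 ratio was 0.62 (0.40 to 0.85) from D8 to D14 and 1.73 (1.56 to 1.90) from D14 to D21, a 3.32-fold higher level on the later day. The latter ratio was 2.38 with a mitochondrial limit of 5% and 0.97 with none.

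The 48 endothelial-like cells of D8 had 23 EDN1 UMIs, or 27.5 CPM (17.4 to 41.2), the 53 of D14 had 69, or 107 CPM (83.6 to 136), and the 37 of D21 had 134, or 235 CPM (197 to 279). None of these 3 intervals overlap, and the log2 ratios between successive days were 1.97 (1.27 to 2.72) and 1.13 (0.70 to 1.57). Of the endothelial-like cells, 4.17%, 18.9% and 37.8% had an EDN1 UMI after thinning and 16.7%, 28.3% and 56.8% before it. At D8, however, 11 of the 23 UMIs came from 1 cell, without which the level was 14.5 CPM. At D14 and D21 the level without the cell with the most UMIs was 93.0 and 195 CPM. With endothelial cells chosen by a gate on UMIs of at least 2 of their markers, the log2 ratios of EDN1 for the successive steps were -0.086 and 2.72, and the D14 level was 31.2 CPM. Against the other cells of the same day, EDN1 in endothelial-like cells was 5.22-fold, 14.4-fold and 9.41-fold higher by day (log2 ratios 2.38, 1.7 to 3.0; 3.85, 3.46 to 4.23; and 3.23, 2.96 to 3.50).

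The larger pools of EDN1 UMIs lay outside the endothelial-like cells. At D8 and D14 the next level was that of cluster 8, a cluster without a name led by PRSS1, TTR and APOA2, at 17.6 CPM (14.5 to 21.1) and 46.9 CPM (41.0 to 53.4). Cluster 8 met 7 early endoderm markers, but its 10 leading genes held more hepatic endoderm markers. The D8 interval of cluster 8 overlapped that of the endothelial-like cells, and the D14 interval did not. This cluster held 43.8% of the EDN1 UMIs of D8 with 14.1% of all UMIs, and 51.1% of those of D14 with 9.51% of all UMIs. Few cells carried them: 32 of 255 cells at D8, with 36 of 116 UMIs in 1 cell, and 57 of 207 cells at D14, with 42 of 224 UMIs in 1 cell. Without that cell the levels were 12.1 and 38.3 CPM.

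At D21 the fibroblast-like cells held 68.8% of the EDN1 UMIs and 36.3% of all UMIs, and the endothelial-like cells held 15.0% with 1.84% of all UMIs. EDN1 was at 54.7 CPM in fibroblast-like cells (50.4 to 59.2, 614 UMIs in 827 cells), which was 3.85-fold above the other cells of D21 (log2 ratio 1.95, 1.74 to 2.16). This ratio was 0.68 with a mitochondrial limit of 5% and 3.02 with none, and that of endothelial-like cells was 1.83 and 4.05. An EDN1 UMI was present in 8.34% of them after thinning and in 15.2%, or 126 cells, before it. A group of 11 cells held 50% of the UMIs, 1 cell held 73, and the level without that cell was 48.3 CPM. The order at D21 was endothelial-like, fibroblast-like, dividing at 25.8 CPM (20.4 to 32.1), and then cluster 16 at 9.59 CPM (4.79 to 17.2) and hepatic endoderm-like cells at 6.26 CPM (4.60 to 8.32), whose intervals overlap.

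CM-like cells carried 5, 10 and 6 EDN1 UMIs on the successive days, which is 0.630, 0.685 and 0.827 CPM. At D21, 5 of the 6 lay in the 50 cells of cluster 17, at 10.3 CPM, and the 485 cells of cluster 6 had 1, or 0.149 CPM. An EDN1 UMI was present in 0.412%, 0.365% and 0.372% of them after thinning. Against the other cells of the day the log2 ratios were -3.41, -4.13 and -5.50. The CM-like share is a low reference against which the shares of the other groups can be read. Median depth was 12967 UMIs in cluster 6, the main CM-like cluster of D21, and 12758 UMIs in cluster 2, the fibroblast-like cluster.

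Fibroblast-like cells of D21 with and without an EDN1 UMI differed in the pooled level of EDNRA. The thinned shares of cells with an EDNRA UMI, given further below, overlap by interval. EDNRA was at 25.0 CPM (18.5 to 33.2) in the 126 cells with EDN1 and at 65.4 CPM (60.3 to 70.8) in the 701 without, a log2 ratio of -1.39 (-1.84 to -0.96). The median depth was 14241.5 and 12328 UMIs. ECE1 was at 106 and 89.3 CPM, a log2 ratio of 0.25 (0.02 to 0.47), and EDNRB at 4.69 and 9.56 CPM. Endothelial markers were checked in the same split, and 4 of the 7 were higher by interval in the cells with EDN1. EMCN, a sialomucin of endothelial cells, was at 164 against 47.1 CPM, CLDN5, a tight junction protein, at 10.9 against 0.537 CPM, ESAM, an adhesion molecule, at 8.34 against 1.72 CPM, and EGFL7 at 316 against 275 CPM. PLVAP, TIE1 and the transcription factor ERG had 1 to 21 UMIs in either set, and their intervals of the ratio held 0. Other genes also differed in this split, picked here after their values were seen: CTGF and CYR61, matricellular genes, were at 499 against 72.0 CPM and 393 against 135 CPM, the chemokine gene CCL2 at 444 against 179 CPM, THBD, the thrombin receptor thrombomodulin, at 61.5 against 6.44 CPM, and TFPI2, a protease inhibitor, at 1265 against 351 CPM, with 636 of its 2427 UMIs in 1 cell. The summed endothelial list was at 505 CPM with EDN1 and 329 CPM without, against 2810 CPM in endothelial-like cells of D21 with an EDN1 UMI. The part that these genes, or endothelial cells and their RNA, have in the EDNRA difference was not tested. The fibroblast list, summed, was at 4106 CPM with EDN1 and 4293 CPM without.

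**Figure D2:**
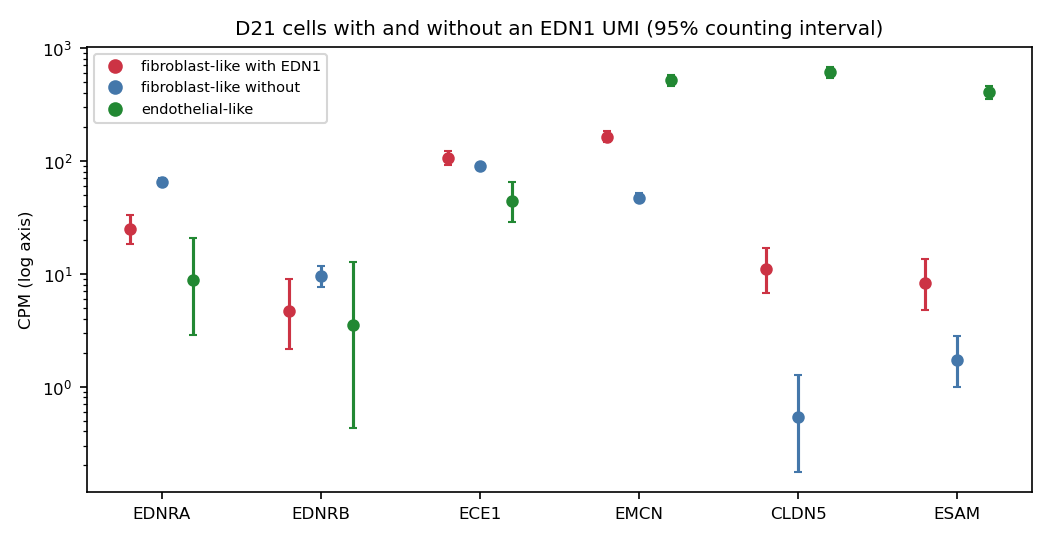
Levels in CPM (log axis) of EDNRA, EDNRB, ECE1 and the endothelial markers EMCN, CLDN5 and ESAM in D21 fibroblast-like cells with an EDN1 UMI (126 cells), without one (701 cells) and in endothelial-like cells (37 cells), with exact Poisson 95% intervals as bars. EDNRA was lower with EDN1 (25.0 against 65.4 CPM), while CLDN5 was higher with it (10.9 against 0.537 CPM) but far under the 606 CPM of endothelial-like cells.

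EDN3, the ligand that EDNRA binds less well, was highest at D14, in clusters 1, 11 and 12 and in dividing cells, and not in the groups highest in EDN1. Its level over all cells was 3.38 CPM on D8, 15.3 CPM on D14 (14.3 to 16.4) and 1.59 CPM on D21. The log2 ratio was 2.18 (1.93 to 2.44), or 4.54-fold higher, from D8 to D14, and -3.27 (-3.72 to -2.86), or 9.66-fold lower, from D14 to D21, with -4.10 for the later step where no mitochondrial limit was set. EDN3 and EDNRA were the 2 of 4 measured genes of the system that passed 2-fold upward from D8 to D14, as did 8.95% of all genes at 10 CPM or more on either day, and 0 passed it downward, as did 1.63% of those genes. From D14 to D21, 1 of 4 passed 2-fold upward (EDN1, with 5.8% of all genes) and 1 of 4 downward (EDN3, with 10.1%).

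At D8 EDN3 was highest in cluster 3, which has EBF2 and PGF among its leading genes, at 8.36 CPM (6.78 to 10.2, 97 UMIs), with dividing cells at 6.49 CPM. That cluster held 61.4% of the EDN3 UMIs of D8 with 24.8% of all UMIs. At D14 cluster 11, with EBF2 and SST among its leading genes, was at 38.1 CPM (32.0 to 45.1), cluster 1, led by MFAP4, CTNNA2 and HOXB4, at 28.2 CPM (25.2 to 31.4), cluster 12, led by MGP, CTSB and MTUS1, at 24.2 CPM (19.8 to 29.4), and dividing cells at 22.8 CPM (19.6 to 26.3). Cluster 11 stood above the rest, and the intervals of the other 3 overlap.

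Cluster 1 held 43.0% of the EDN3 UMIs of D14 with 23.4% of all UMIs and at most 7 in 1 cell, so EDN3 was spread over more cells than EDN1. A coarser resolution of 0.4 gave 13 clusters in place of 18. The one that overlapped cluster 1 most held 72.3% of the EDN3 UMIs, and its share of all UMIs was not computed. An EDN3 UMI was present in 9.75% of cluster 1 after thinning (20.2% before) and in 10.1% of cluster 11 (19.9% before). The groups highest in EDN1 at D14 had almost no EDN3: endothelial-like cells had 1 UMI at D14 and none on the other days, and cluster 8 had 2 UMIs at D14, or 0.419 CPM. CM-like cells had 1, 12 and 0 EDN3 UMIs at D8, D14 and D21. At D21 the highest level, 7.83 CPM in dividing cells, rested on 24 UMIs in 7 cells, 15 of them in 1 cell, and was 2.95 CPM without it.

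EDN2, the third ligand gene, had 48 UMIs among the kept cells, split as 19, 22 and 7 by day. Its largest pool was 16 UMIs in CM-like cells of D14, or 1.10 CPM.

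**Figure D3:**
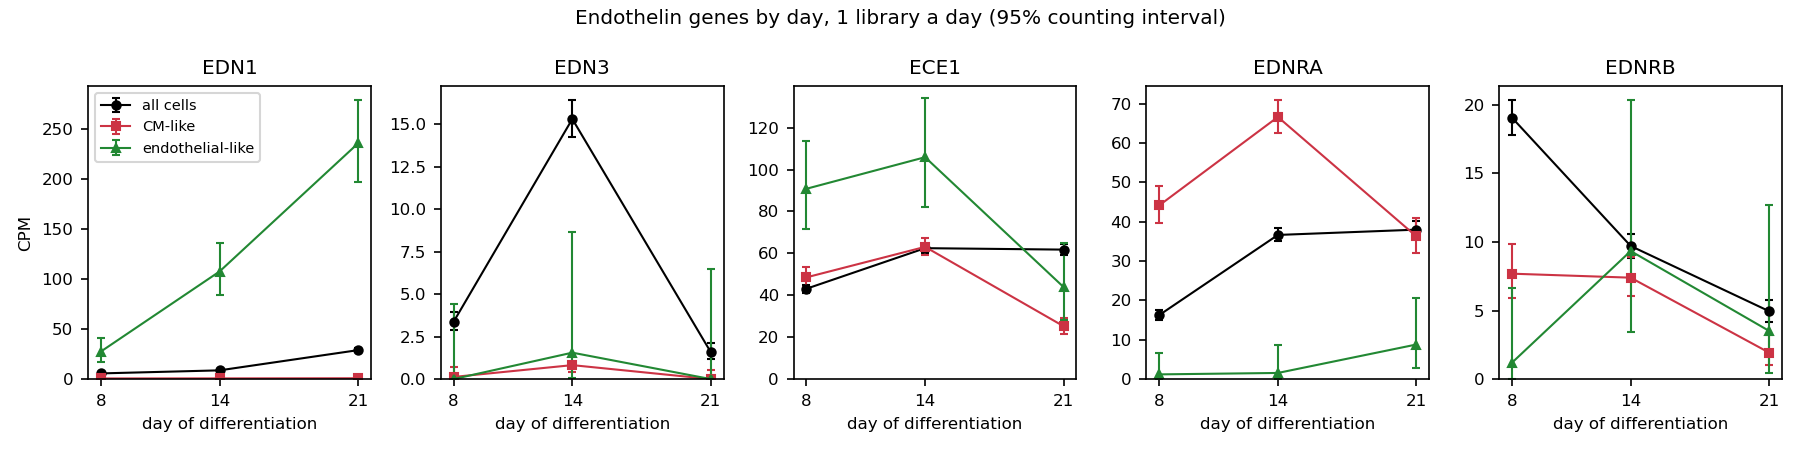
Level in CPM of the 5 genes (1 panel each) at D8, D14 and D21 in all kept cells, CM-like cells and endothelial-like cells, with exact Poisson 95% intervals as bars and 1 library behind each day. Over all cells EDN1 ended at 28.9 CPM at D21, EDN3 peaked at 15.3 CPM at D14, and EDNRB went from 19.1 to 9.71 to 4.95 CPM.

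ECE1, the converting enzyme, was found in every group of cells on every day, including the CM-like cells, which had few UMIs of either ligand. Its level over all cells was 43.1 CPM (41.2 to 45.0), 62.5 CPM (60.3 to 64.7) and 61.8 CPM (59.0 to 64.6) by day. D8 was lower by counting interval, with a log2 ratio of 0.54 (0.45 to 0.62) to D14, and D14 and D21 did not differ beyond it (-0.02, -0.10 to 0.07). With TMM scaling, whose factors were 1.09 at D14 and 0.903 at D21, this second ratio was 0.26, and with a mitochondrial limit of 5% it was 0.47.

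The group with the highest ECE1 level was a different one on each day. At D8 it was in endothelial-like cells, at 90.8 CPM (71.5 to 114), 2.15-fold above the other cells of D8. At D14 it was in cluster 12, at 146 CPM (134 to 158, 613 UMIs), 2.65-fold above the other cells of D14, and 44.6% of its 289 cells had a UMI after thinning (76.8% before). Endothelial-like cells of D14 came next, at 106 CPM (82.2 to 134). Cells were clustered anew under the other mitochondrial limits, with at least 1000 genes and with 3000 variable genes. The cluster that overlapped cluster 12 most was then at 101 to 108 CPM. The endothelial-like level was not computed there, so whether this order holds is not known. At D21 fibroblast-like cells were at 92.2 CPM (86.7 to 98.0), cluster 16, led by CXCL14, MYL2 and ANK2, at 84.5 CPM (68.6 to 103) and dividing cells at 83.8 CPM (73.9 to 94.7), and these 3 intervals overlap. Fibroblast-like cells lay 2.08-fold above the other cells of D21 and held 54.3% of the ECE1 UMIs.

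The ECE1 level of CM-like cells was 48.5 CPM (43.8 to 53.6), 63.1 CPM (59.1 to 67.3) and 25.2 CPM (21.7 to 29.2) by day. The log2 ratios were 0.38 (0.21 to 0.55) and -1.32 (-1.56 to -1.09), so the D21 level was the lowest of the 3. With CMs chosen by a gate on UMIs of at least 4 of their markers, the D21 level was 53.7 CPM and the second ratio -0.28. Endothelial-like cells also had less ECE1 at D21, at 43.9 CPM (28.4 to 64.8), with a log2 ratio of -1.27 (-1.99 to -0.59) from D14. Of the genes of the system with 10 CPM or more, 1 of 2 (ECE1) passed 2-fold downward from D14 to D21 in CM-like cells, as did 15.0% of all genes, and 0 passed it upward, as did 5.07%. In endothelial-like cells EDN1 passed it upward (1 of 2, with 16.6% of all genes) and ECE1 downward (1 of 2, with 13.4%). From D8 to D14 the count in endothelial-like cells was 1 of 2 upward, EDN1, with 6.83% of all genes, and 0 downward, with 8.84%. In CM-like cells 0 of 2 passed 2-fold either way from D8 to D14, where 10.4% of all genes passed it upward and 2.38% downward. For EDNRA this call rested on the processing: its log2 ratio of 0.59 became 1.14 with a mitochondrial limit of 20%, 1.15 with none, 1.11 with at least 1000 genes and 1.09 with 3000 variable genes, which are past 2-fold.

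EDNRA, the receptor that prefers EDN1, was highest in CM-like cells at D8 and D14. CM-like cells of D8 had 350 EDNRA UMIs, or 44.1 CPM (39.6 to 49.0), those of D14 had 972, or 66.6 CPM (62.5 to 70.9), and those of D21 had 263, or 36.3 CPM (32.0 to 40.9). A UMI was present in 15.2%, 22.6% and 14.0% of CM-like cells after thinning and in 41.6%, 48.5% and 35.0% before it. D14 was thus the highest day, with log2 ratios of 0.59 (0.42 to 0.77) from D8 and -0.88 (-1.08 to -0.68) to D21. Over all cells EDNRA was at 16.3 CPM (15.1 to 17.4), 36.6 CPM (35.0 to 38.3) and 38.0 CPM (35.8 to 40.2) by day, so that D21 did not differ from D14 beyond counting error (log2 ratio 0.05, -0.05 to 0.16). This ratio was 0.33 with TMM scaling and 0.70 with a mitochondrial limit of 5%.

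Among the kept cells, the preference for CM-like cells was present at D8 and D14 and not at D21. EDNRA was 4.18-fold higher in CM-like cells than in the other cells of D8 (log2 ratio 2.06, 1.85 to 2.27) and 2.74-fold higher at D14 (1.45, 1.32 to 1.59), and at D21 the log2 ratio was -0.09 (-0.29 to 0.11). CM-like cells held 46.1% of the EDNRA UMIs of D8 with 17.0% of all UMIs, 52.8% at D14 with 29.0%, and 22.4% at D21 with 23.5%. With a mitochondrial limit of 5% the D14 share was 26.2%, and the CM-like share of all UMIs under that limit was not computed. The D14 log2 ratio against the other cells was 1.30 to 1.58 over the alternatives. The D21 ratio and share were not computed under other limits, and the limit left out many CM-like cells of D21. Clustered without it, 1088 CM-like cells of D21 had a mitochondrial share of 10% to 20%, and 256 had 20% or more. EDNRA in them was at 57.7 and 64.5 CPM of the non-mitochondrial UMIs. At D21 EDNRA was at 58.5 CPM in fibroblast-like cells (54.1 to 63.1, 657 UMIs), 2.23-fold above the other cells of that day, at 64.5 CPM in cluster 16 (50.6 to 81.0) and at 47.3 CPM in dividing cells (39.9 to 55.6). The order at D21 was cluster 16, fibroblast-like, dividing and CM-like, and each neighbouring pair of intervals overlaps. Fibroblast-like cells held 56.0% of the EDNRA UMIs of the kept cells of D21.

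At D8 the second level of EDNRA was 15.9 CPM in dividing cells, with cluster 3 at 13.4 CPM overlapping it, and at D14 it was 35.6 CPM in cluster 1 (32.3 to 39.2), with cluster 11 at 31.7 CPM overlapping it. Endothelial-like cells carried 1, 1 and 5 EDNRA UMIs by day, or 1.19, 1.56 and 8.78 CPM, and hepatic endoderm-like cells of D21 were at 3.73 CPM. These groups give a low reference: an EDNRA UMI was present in 1.31% of hepatic endoderm-like cells after thinning and in 7.19% before it, at a median of 21929.5 UMIs in their cluster. Whether these UMIs are free RNA, doublets or low expression was not tested.

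The level of EDNRA in CM-like cells at D21 differed with the mitochondrial share of the cells, and 21.3% of the D21 barcodes were within the limits, against 74.6% at D8 and 77.7% at D14. With the limit on that share left out, the cells were clustered again and CM-like cells were split by it. In CPM of the non-mitochondrial UMIs, EDNRA at D21 was at 37.8 (32.4 to 43.8) in 362 cells with a share of 5% to 10%, 57.7 (53.6 to 62.2) in 1088 cells with 10% to 20% and 64.5 (54.1 to 76.4) in 256 cells with 20% or more. The cells outside the limit thus had more EDNRA by interval than those within it. At D14 EDNRA was at 70.7 in the cells with 5% to 10% and 88.2 (75.6 to 102) in those with 10% to 20%, so D21 lay under D14 in both bins that the days share. ECE1 at D21 was at 26.4, 31.8 and 43.0 over the 3 bins, and SIRPA, for comparison, at 51.0, 54.3 and 48.3. What the mitochondrial share stands for in these cells was not tested.

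**Figure D4:**
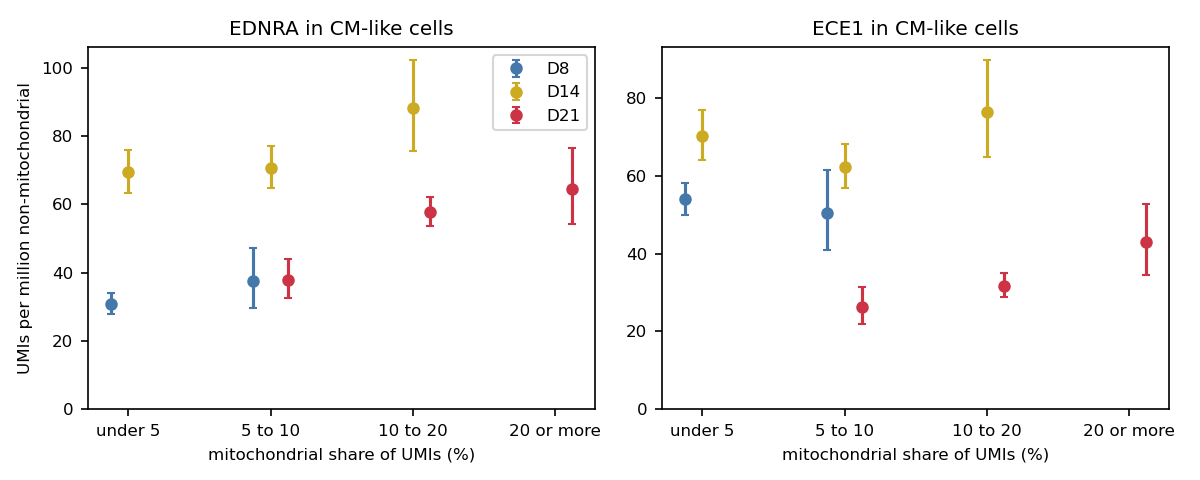
EDNRA and ECE1 in CM-like cells, in CPM of the non-mitochondrial UMIs (vertical axis), by bin of mitochondrial share (horizontal axis, percent of UMIs) and day, from a clustering with no mitochondrial limit; bars are exact Poisson 95% intervals. At D21 EDNRA was at 37.8 in the lowest bin and 64.5 in the highest, and ECE1 at 26.4 and 43.0. The D8 points come from 800 and 133 CM-like cells, against 486 CM-like cells of D8 in the main clustering.

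EDNRA and ISL1, a transcription factor of second heart field progenitors, were compared in the same cells after thinning. At D8 ISL1 was present in 26.8% of cells with an EDNRA UMI (20 to 34.5, exact Clopper-Pearson 95% interval) and in 27.8% of those without. At D14 it was present in 35.7% (31.5 to 40.0) and 38.0% (36.3 to 39.8), and at D21 in 4.23% and 3.56%. On none of the 3 days was ISL1 more frequent with EDNRA beyond counting error. Within CM-like cells of D8 the shares were 28.4% (18.5 to 40.1) with EDNRA and 20.1% (16.4 to 24.3) without, which overlap. Cells with UMIs of both EDNRA and SIRPA, the other marker of that sort, numbered 4, 25 and 19 by day. Of the 25 at D14, 84.0% were CM-like and 2 cells, or 8.00% (0.984 to 26.0), had ISL1. Of the 474 cells of D14 with EDNRA and no SIRPA, 47.9% were CM-like and 37.1% had ISL1. At D21 the direction was the other way, with ISL1 in 2 of the 19, or 10.5% (1.30 to 33.1). It was in 3.73% (1.72 to 6.97) of the 241 cells of D21 with EDNRA and no SIRPA, and these intervals overlap. At D8, 0 of the 4 had ISL1. These are RNA values of CCOs, and a sort reads surface protein.

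EDN3 was found with ISL1 more often. At D14 ISL1 was present in 53.0% of cells with an EDN3 UMI (45.5 to 60.3) and in 36.9% of those without (35.3 to 38.5), and at D8 in 55.3% (38.3 to 71.4) and 27.3% (25.6 to 29.1). Within cluster 1, the largest EDN3 pool of D14, the shares were 52.4% (42.4 to 62.4) and 45.8% (42.6 to 49.0), which overlap.

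EDNRB, the receptor that binds the endothelins alike, was lower on each later day and was highest in cluster 8 at D8 and in cluster 13 at D14. Over all cells the 3 days were at 19.1 CPM (17.8 to 20.4), 9.71 CPM (8.87 to 10.6) and 4.95 CPM (4.20 to 5.80). Both log2 ratios were -0.97 (-1.14 to -0.81 and -1.24 to -0.71). At D8 cluster 8 was at 55.1 CPM (49.6 to 61.1, 364 UMIs), 4.19-fold above the other cells of D8, and held 40.8% of the EDNRB UMIs. An EDNRB UMI was present in 15.3% of its cells after thinning and in 51.8% before it. At D14 cluster 13, led by SFRP2, POU5F1 and SOX2, was at 52.8 CPM (42.5 to 64.7, 92 UMIs in 78 cells), 6.46-fold above the other cells, and cluster 8 at 24.1 CPM (19.9 to 28.9), 2.93-fold above them. Cluster 13 had been at 14.2 CPM (11.1 to 17.8) at D8, so the order of the pair at D14 was the reverse of that at D8.

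In the other groups EDNRB was lower than in the highest cluster of D8 and of D14. At D8 dividing cells were at 18.0 CPM and cluster 3 at 16.0 CPM, and the interval of cluster 3 overlaps that of cluster 13. They held 14.0% and 20.9% of the EDNRB UMIs of D8. Dividing cells of D14 were at 5.69 CPM. CM-like cells were at 7.69, 7.40 and 1.93 CPM by day, with a log2 ratio of -1.94 (-2.86 to -1.13) from D14 to D21. At D21 fibroblast-like cells were at 8.73 CPM (7.08 to 10.6, 98 UMIs), 3.12-fold above the other cells, dividing cells at 8.81 CPM and cluster 16 at 8.71 CPM, while hepatic endoderm-like cells had 1 UMI in 306 cells. Endothelial-like cells had 1, 6 and 2 EDNRB UMIs. The antisense gene EDNRB-AS1 had none.

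**Figure D5:**
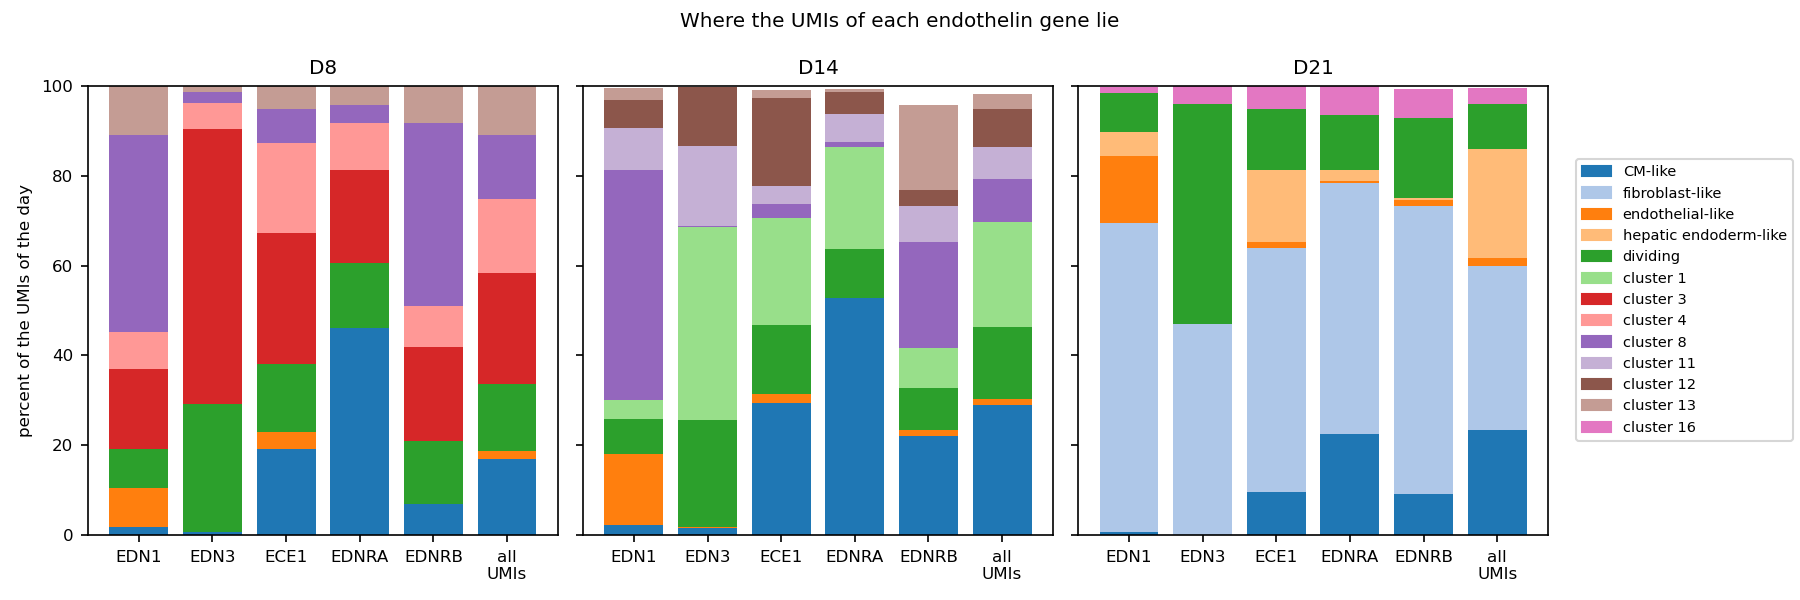
Percent of the UMIs of each gene (stacked bars) that lay in each cell group on each day, beside the bar of all UMIs; groups under 30 cells are left blank. CM-like cells held 46.1% of the EDNRA UMIs at D8 and 52.8% at D14. At D21 fibroblast-like cells, with 36.3% of all UMIs, held 54.3% to 68.8% of those of EDN1, EDNRA, EDNRB and ECE1. Their EDN3 share was 46.9% (32.5 to 61.7, 23 of 49 UMIs), an interval that holds 36.3%, and dividing cells held 49.0%.

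Side by side, EDN1 and EDNRA were highest in different groups at D8 and D14, and at D21 fibroblast-like cells carried much of both. Endothelial-like cells had EDN1 and little EDNRA, and EDNRB in them was lower than in the other cells at D8 and at 9.34 against 9.72 CPM at D14 (log2 ratio -0.06, -1.51 to 1.08). Of the genes of the system with 10 CPM or more, 2 of 4 passed 2-fold above the other cells at D8 (EDN1 and ECE1, with 15.8% of all genes) and 2 below (both receptors, with 11.0%). At D14, 1 of 4 passed above (EDN1, with 10.3%) and 2 below (EDN3 and EDNRA, with 17.1%), and at D21 1 of 3 passed above (EDN1, with 15.2%) and 1 below (EDNRA, with 12.9%). CM-like cells had EDNRA and almost no ligand, with 1 of 3 above at D8 (EDNRA, with 6.36%), 1 below (EDNRB, with 5.7%), 1 of 5 above at D14 (EDNRA, with 9.71%) and 2 below (both ligands, with 7.25%). At D21 they had 0 of 3 above (with 12.8%) and 2 below (EDN1 and ECE1, with 15.6%).

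Fibroblast-like cells of D21 had ligand, enzyme and receptor together as a group. All 3 genes of the system with 10 CPM or more passed 2-fold above the other cells (EDN1, EDNRA and ECE1, with 10.1% of all genes) and 0 below (with 12.2%). Single cells with both were few: after thinning EDNRA was present in 13% (6.14 to 23.3) of the 69 fibroblast-like cells with EDN1 and in 18.1% (15.4 to 21.0) of those without, which overlap. Over all cells, EDN1 and EDNRA were found in the same cell 1, 4 and 11 times by day after thinning, and 13, 22 and 52 times before it.

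Cluster 8 had EDN1 with EDNRB in place of EDNRA. At D8, 2 of 4 genes passed above the other cells (EDN1 and EDNRB, with 4.79%) and 1 below (EDNRA, with 5.82%), and at D14 2 of 5 above (the same pair, with 5.4%) and 3 below (EDN3, EDNRA and ECE1, with 12.5%). Cluster 13 had 0 of 3 above at D8 (with 3.75%) and 2 below (EDNRA and ECE1, with 8.86%), and 1 of 4 above at D14 (EDNRB, with 4.24%) and 2 below (EDN3 and EDNRA, with 15.2%).

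Clusters 1 and 11 of D14 had raised EDN3, and EDNRA in them was near the level of the other cells, with log2 ratios of -0.05 (-0.21 to 0.11) and -0.22 (-0.51 to 0.05). In cluster 12 EDNRA was lower than in the other cells, at -0.83 (-1.15 to -0.52). Cluster 1 had 1 of 5 above (EDN3, with 1.58%) and 2 below (EDN1 and EDNRB, with 5.33%), cluster 11 had 1 of 5 above (EDN3, with 2.29%) and 0 below (with 8.74%), and cluster 12 had 1 of 4 above (ECE1, with 4.11%) and 1 below (EDNRB, with 6.91%). At D14, EDNRA was present in 13.5% of cells with an EDN3 UMI (8.94 to 19.3) and in 13.9% of those without. No gene of the system passed 2-fold in clusters 3 and 4 of D8, of 3 measured in each, where 0.98% and 1.76% of all genes passed above and 4.1% and 7.28% below. In cluster 16 of D21, 0 of 3 passed above (with 4.27%) and 1 below (EDN1, with 5.14%).

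The wider pathway was read from 11 lists with 55 genes, from propeptide cleavage to receptor shut-off and target genes. Over all cells 33 of them reached 10 CPM at D8 or D14, of which 8 passed 2-fold upward and 2 downward, where 8.95% and 1.63% of all genes did, and their median log2 ratio was 0.54, against 0.08 over all genes. From D14 to D21, 2 of 34 passed upward and 7 downward, where 5.8% and 10.1% of all genes did, with a median of -0.03 against -0.20. HAND2, the only 1 of the 5 listed arch targets to reach 10 CPM in these comparisons, was at 46.1, 318 and 122 CPM by day. Whether its level depends on endothelin signals in these cells was not tested.

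In CM-like cells, 8 of 32 pathway genes passed 2-fold upward from D8 to D14 and 3 downward, where 10.4% and 2.38% of all genes did, with a median log2 ratio of 0.29 against 0.05 over all genes. Those upward were GNA12, a G protein alpha subunit (13 to 31.2 CPM), ITPR1, the calcium release channel opened by inositol trisphosphate (5.29 to 16.4), NFATC2, a calcineurin-dependent transcription factor (6.18 to 19.8), RCAN1, a calcineurin regulator (12.2 to 30.1), the receptor shut-off genes RGS3 (27.5 to 60.2) and GRK5 (2.65 to 22.5), HAND2 (86.0 to 205) and MYH7, the slow myosin heavy chain (3.40 to 27.3). Those downward were RGS2, which shortens Gq signals (43.9 to 17.2), the natriuretic peptide gene NPPB (129 to 48.7) and ACTA1, skeletal actin (534 to 118).

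From D14 to D21 the balance in CM-like cells was the other way, with 3 of 32 upward and 10 downward, where 5.07% and 15.0% of all genes passed, and a median of -0.70 against -0.18. Those downward were PLCB1, a phospholipase C (92.8 to 7.86 CPM), ITPR1 (16.4 to 3.58), PRKCA, a protein kinase C (16.4 to 5.38), NFATC2 (19.8 to 9.51), NFATC4 (27.5 to 7.44), RGS2 (17.2 to 6.75), RGS4 (124 to 9.10) and GRK5 (22.5 to 5.51), with ECE1 and FURIN, the propeptide protease (39.7 to 18.5). GNAQ, the Gq subunit itself, was at 69.8, 43.2 and 25.8 CPM by day and stayed within 2-fold at each step. The 3 upward were NPPA (170 to 351), NPPB (48.7 to 108) and MYH7 (27.3 to 637). They are 3 of the 4 genes listed as readouts of CM hypertrophy, and ACTA1, the remaining gene, did not pass 2-fold either way. The paper reads MYH7 as a marker of late maturation. Whether hypertrophy or maturation goes with these changes was not tested. In endothelial-like cells 4 of 32 pathway genes passed upward and 3 downward from D8 to D14, where 6.83% and 8.84% of all genes did. From D14 to D21 the counts were 6 and 8 of 34, where 16.6% and 13.4% of all genes passed.

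Over the 23 pools of a day and a cluster, which share 3 libraries between them, the genes most like each member in log2(CPM + 10) were listed as a description. EDN1 was most like TM4SF1, a surface protein of endothelium (Pearson r 0.894), CSGALNACT1 (0.878), SGK1 (0.873), ARHGAP18 (0.869) and NOSTRIN, an endothelial regulator of nitric oxide synthase (0.853). EDN3 was most like the transcription factor genes EBF3 (0.913) and TLX1 (0.879), CLMP (0.890), PLBD1 (0.869) and CTD-2298J14.2 (0.862). EDNRA was most like MIR143HG, the host gene of a smooth muscle microRNA (0.885), TMX4 (0.884), MAP1A (0.875), SMTNL2 (0.875) and THRA, a thyroid hormone receptor (0.874). For EDNRB the highest were LTC4S (0.817), MAP4K1 (0.811) and FZD7, a WNT receptor (0.805), and for ECE1 they were MLXIP (0.835), PCDHGA10 (0.807) and NFATC1 (0.804). Among the 5 genes themselves the coefficients were low, from -0.35 for EDN1 with EDNRA to 0.33 for EDN3 with ECE1.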

How the data were processed

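The deposited table holds whole UMI counts, not normalized and with the authors' filter on cells not yet applied, for 17327 barcodes of 3 droplet libraries. The submitters' processing notes name Cell Ranger, Seurat 3.2.1 and the hg19 build, and no coordinates are given here. The barcode suffix gave the day. Barcodes were kept if their number of genes was over 2000 and under 7500 and the 13 mitochondrial genes had under 10% of their UMIs. At D14 and D21 the number of cells left equals that stated by the study, and at D8 it differs. Doublets were not called and were kept. Genes needed a UMI in 10 barcodes. Seurat 5.3.0 with Matrix 1.6.5 in R 4.3.3 log-normalized counts to 10000 per cell and clustered all days together, without integration, on 1951 of 2000 variable genes, 20 principal components and a resolution of 0.8. The 5 genes, the pathway lists and the genes the paper names were left out of the variable genes.

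A cluster was named on the day with most of its cells if 3 or more of a class's markers stood 2-fold above the other cells with 10 CPM added. The class also had to lead the next by 2 markers or hold at least 3 of the 10 leading genes alone. A class was refused where another held more of those 10 genes, or where depth was low and it held none of them. Clusters 8 and 12 stayed unnamed for the former reason, though they met 7 early endoderm and 3 fibroblast markers, respectively. The thresholds were set after values were seen, and 3810 cells stayed in unnamed clusters. Pooled UMIs were expressed as CPM with Python 3.11.15, numpy 2.4.6, pandas 2.3.3 and scipy 1.17.1, and plotted with matplotlib 3.10.9. A gene counted as past 2-fold with 1 count added among genes at 10 CPM or more in either pool, with no p-value. A fold against a level of 0 counts was computed from 3 counts. The genes, lists and comparisons were chosen with earlier results of these data known. Named genes are the 5 genes, the pathway genes past 2-fold and the 5 genes most alike to each, and marker or leading genes where a result turns on them. Intervals were tested on simulated Poisson counts of pooled cells. That simulation has no variation between cells, so it cannot show how the intervals perform where a few cells hold most UMIs. Alternatives were other limits on cells, clusterings, marker gates, TMM (edgeR 4.0.16) and median-of-ratios scaling, equal weight per cell, other thinning and other minimum levels.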

Additional observations from a re-analysis of the deposited data

Results flagged for a closer look

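These results stood out because the same gene was higher on the later day in 1 group of cells and lower in another, by counting interval. In each case the difference between the groups was not tested, since each day is 1 library.

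From D8 to D14 the log2 ratio of EDNRB was 1.90 (1.44 to 2.36) in cluster 13, led by SFRP2, POU5F1 and SOX2, while it was -1.19 (-1.51 to -0.89) in cluster 8, led by PRSS1, TTR and APOA2, and -1.66 (-2.18 to -1.16) in dividing cells. From D14 to D21 the log2 ratio of EDNRA was 0.93 (0.61 to 1.24) in dividing cells and -0.88 (-1.08 to -0.68) in CM-like cells. Over the same step the log2 ratio of ECE1 was 0.50 (0.28 to 0.72) in dividing cells, -1.32 (-1.56 to -1.09) in CM-like cells and -1.27 (-1.99 to -0.59) in endothelial-like cells. The dividing cells of D14 were mostly of cluster 7, with 438 cells, and those of D21 of cluster 15, with 136 cells. EDNRA was at 26.0 CPM in cluster 7 at D14, at 38.2 CPM in the 37 cells of cluster 7 at D21 and at 49.6 CPM in cluster 15. ECE1 was at 61.3, 23.9 and 99.2 CPM in the same sets, so within cluster 7 it was lower at D21, from 15 UMIs.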

How the results depend on the processing

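No paired analysis was possible because each day is 1 library. For 43 results, 420 alternative values were computed, of which 295 stayed within the interval or spread of the value reported, 124 moved beyond it and 1 turned its direction. Of 192 log2 ratios, 188 kept their sign. Another 14 values could not be computed, 12 of them because the marker gate defines neither fibroblast-like cells nor numbered clusters. Cells and clusters are chosen anew in many of these. There a numbered cluster stands for the new cluster that overlapped it most, and the cause of each move was not tested. The endothelial-like values rest on few UMIs.

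The 1 turn was that of EDN1 in endothelial-like cells from D8 to D14, at -0.086 with cells chosen by the marker gate. Under that gate the EDNRA level in CM-like cells of D14 was 61.5 CPM, their share of the EDNRA UMIs 56.6%, the EDNRA ratio from D14 to D21 in CM-like cells -0.56, the EDN1 ratio in endothelial-like cells 2.72 and the thinned share of endothelial-like cells of D21 with EDN1 19.0%.

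The mitochondrial limit moved the most results. Under limits of 5%, 20% and none, respectively, the ratio over all cells from D14 to D21 was 2.38, 1.03 and 0.97 for EDN1, -2.70, -4.01 and -4.10 for EDN3, -0.60, -1.40 and -1.49 for EDNRB and 0.47, -0.30 and -0.32 for ECE1. EDNRA in CM-like cells from D8 to D14 was 0.89, 1.14 and 1.15, ECE1 in cluster 12 was 103, 108 and 107 CPM, the CM-like share of the EDNRA UMIs of D14 was 26.2%, 57.2% and 57.1%, and EDN1 against the other cells of D21 was 1.83, 3.99 and 4.05 in endothelial-like and 0.68, 2.91 and 3.02 in fibroblast-like cells. EDNRA in CM-like cells from D14 to D21 was -0.57 under both wider limits. At 5% alone, EDN1 was 185 CPM in endothelial-like and 62.8 CPM in fibroblast-like cells of D21, the latter with 79.9% of its UMIs, EDN3 in cluster 1 was 36.8 CPM, EDNRA in CM-like cells of D14 was 76.3 CPM with a thinned share of 25.4%, and the ratios over all cells were 0.85 for EDN1 and 1.01 for EDNRA from D8 to D14 and 0.70 for EDNRA from D14 to D21.

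With at least 1000 genes per cell, EDN1 at D21 was 307 CPM in endothelial-like and 49.1 CPM in fibroblast-like cells, which held 61.2% of its UMIs, with ratios of 3.77 and 1.53 against the other cells and 1.60 from D14 in endothelial-like cells, ECE1 in cluster 12 was 107 CPM and EDNRA in CM-like cells from D8 to D14 was 1.11.

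With TMM and median-of-ratios scaling, respectively, EDNRA in CM-like cells of D14 was 61.8 and 59.2 CPM and its ratio to D21 -0.64 and -0.66, ECE1 in cluster 12 was 131 CPM under both, ECE1 over all cells from D8 to D14 was 0.42 and 0.41, and from D14 to D21 EDN1 was 2.01 and 2.03, EDNRA 0.33 and 0.36, EDNRB -0.70 and -0.67 and ECE1 0.26 and 0.29. EDNRA from D8 to D14 was 1.05 by median of ratios. With equal weight per cell, EDN1 in fibroblast-like cells was 47.4 CPM and EDNRB in cluster 8 at D8 62.8 CPM, the ratios over all cells were 0.34 for EDN1 from D8 to D14 and 1.95 for EDN1, 0.19 for EDNRA and -0.66 for EDNRB from D14 to D21, and those against the other cells 3.52 for EDN1 in endothelial-like and 1.63 in fibroblast-like cells of D21 and 2.27 for EDNRB in cluster 8 of D8.

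With 3000 variable genes, EDN3 in cluster 1 was 32.9 CPM, ECE1 in cluster 12 101 CPM, EDNRA in CM-like cells from D8 to D14 1.09 and the CM-like share of its UMIs at D14 59.2%. At a resolution of 0.4, EDNRB in cluster 8 of D8 was 37.3 CPM and its ratio to the other cells 1.53. The cluster that overlapped cluster 1 most held 72.3% of the EDN3 UMIs of D14. At 1.2, EDN3 in cluster 1 was 33.7 CPM with 36.9% of its UMIs, and EDNRA in CM-like cells of D14 was 71.1 CPM, 1.30 against the other cells, with 35.7% of its UMIs. Shares of cells with a UMI followed depth: without thinning 48.5% of CM-like cells of D14 had EDNRA, 56.8% of endothelial-like cells of D21 had EDN1 and 24.6% of fibroblast-like cells with EDN1 had EDNRA. The first was 36.1% at 8000 UMIs, and with at least 2 UMIs asked for the 3 shares were 4.20%, 21.6% and 0%. An alternative chosen after seeing the data, without the cell with the most UMIs, gave 195 and 48.3 CPM for EDN1 in endothelial-like and fibroblast-like cells of D21. With no minimum level, 13.8% of all genes passed 2-fold upward and 12.5% downward from D8 to D14, and 12.2% and 20.2% from D14 to D21. The genes of the system past 2-fold were then EDN3 and EDNRA for the earlier step and EDN1 and EDN3 for the later.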
